A study of Mus musculus with 6 samples.

Results

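The mast cell genes examined here were 9 genes taken by symbol from the deposited tables: *Cpa3*, *Cma1*, *Mcpt4*, *Tpsb2*, *Tpsab1*, *Kit*, *Ms4a2*, *Fcer1a* and *Hdc*. All 9 were among the 53819 listed genes, and all 9 passed the filter on low counts that left 17496 genes to test. RNA came from flexor digitorum longus (FDL) tendons that had been cut and repaired, in 3 mice of the genotype Scx-Cre+; DTR F/+ (DTRScxLin) and 3 Scx-Cre- littermates that also carried DTR F/+ (WT). Both groups received 5 daily injections of diphtheria toxin (DT, 100 ng each) from day 14 to day 18. The toxin and the receptor allele (DTR) were thus shared, and the groups were defined by Cre. Per the paper, Cre removes a stop cassette so that the receptor is expressed, and DT then kills cells of the *Scx* lineage. Without Cre the receptor stays silent. By the protocol, tendons were harvested at D28 post-surgery, whereas the sample titles count the same number of days from depletion; the protocol is followed here. The paper's mouse studies used male and female mice, operated on at 10 to 12 weeks of age. The Cre was driven by *Scx* without tamoxifen, so the receptor marked any cell with a history of *Scx* expression, whatever it expressed at harvest. Whether the libraries were matched by sex or litter is not given in the sources used here.

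Mast cells are tissue-resident immune cells that mature in connective tissue under the growth factor receptor KIT. Their granules hold proteases, namely carboxypeptidase A3, chymases and tryptases, packed with heparin and with histamine, which histidine decarboxylase makes from histidine. Antigen bound to IgE on the high-affinity receptor Fc epsilon RI triggers release of these granules, and mast cells are a regular part of healing connective tissue.

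Total counts ranged from 42744138 to 48854310 per library, and TMM-normalized counts (library sizes corrected by edgeR's trimmed mean of M-values, at the scale of the average library) are used unless another scale is named. Values for single libraries are given in the order of replicates 1 to 3, and SE is the standard error of a fitted log2 fold change. *Tnmd* and *Scx*, which mark tendon cells, had counts in all 6 libraries, and *Scx*, whose promoter drove Cre, was higher in each DTRScxLin library (3476, 3407 and 3532 normalized counts) than in each WT library (2202, 2703 and 3064; log2 fold change 0.39, SE 0.12, edgeR adjusted p = 0.371). Transcripts of neighbouring tissues differed between libraries, and their values stand beside the results below. In whole tissue, fewer mast cells and less RNA per mast cell cannot be told apart.

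Of the 9 genes, 8 had a lower fitted level in DTRScxLin than in WT tendons and *Hdc* had a higher one, and 48.5% of all tested genes were fitted lower. The median log2 fold change of the 9 was -1.06, against 0.0082 over all tested genes, and 5 of the 9 were at -1 or lower, against 5.38% of all tested genes. The 5 genes *Mcpt4*, *Tpsb2*, *Tpsab1*, *Ms4a2* and *Kit* were lower in each DTRScxLin library than in each WT library, a pattern found in 7.85% of all tested genes, and 0 of the 9 were higher in each (8.96% of all tested genes). The quasi-likelihood test of edgeR called 0 of the 9 at an adjusted p below 0.05, and 0% of all tested genes in either direction. At an unadjusted p under 0.05 it had 4 of the 9 lower, *Tpsb2*, *Tpsab1*, *Kit* and *Ms4a2*, against 5.45% of all tested genes, and 0 of the 9 higher, against 5.52%. The Wald test of DESeq2 called 3 of the 9 lower, *Tpsab1*, *Ms4a2* and *Kit*, against 1.53% of the genes it tested, and 0 higher, against 1.12%. On simulated data DESeq2 made 59 false calls among 16598 unchanged genes, against 7 among 16977 for edgeR. Of the genes changed by 1 on the log2 scale, DESeq2 recovered 70 of 108 and edgeR 51 of 110. The simulated spread was the one that edgeR fitted to these data. The 9 mast cell genes were listed with earlier results of these data known, so the shares given for them are descriptions.

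**Figure D1:**
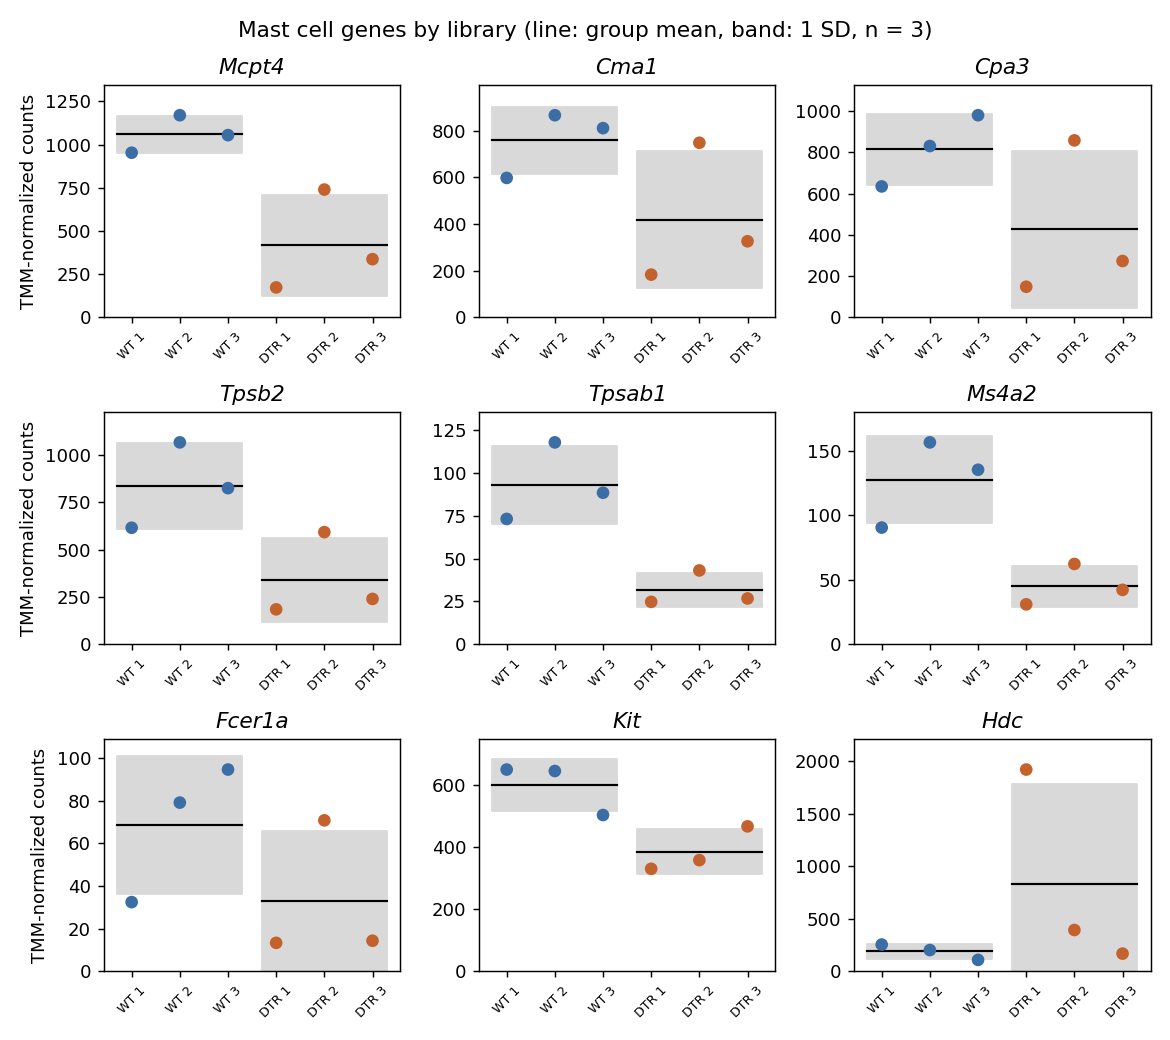
TMM-normalized counts (vertical axis, from 0) of the 9 mast cell genes in each library, with WT replicates in blue and DTRScxLin (DTR) replicates in orange; lines are group means and bands 1 SD, cut at 0 (n = 3 each). DTRScxLin replicates 1 and 3 sit below all WT libraries except for *Hdc*, and DTRScxLin replicate 2 reaches the WT range for *Cma1*, *Cpa3* and *Fcer1a*.

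The granule proteases are taken first. *Mcpt4*, which encodes a chymase of connective tissue mast cells, had 953, 1170.5 and 1055 normalized counts across the WT libraries and 172, 739 and 336 across the DTRScxLin libraries. The group means were 1059.5 ± 109 and 416 ± 292 (SD, n = 3 each), the groups did not overlap, and DTRScxLin replicate 1 had the lowest level. The log2 fold change was -1.35 ± 0.54 (SE) (edgeR adjusted p = 0.463), or 2.55-fold lower.

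*Cma1*, the second chymase, had 598, 867 and 812 normalized counts across the WT libraries and 182, 749 and 326 across the DTRScxLin libraries. DTRScxLin replicate 2 lay between the WT libraries, so the groups overlapped (log2 fold change -0.86, SE 0.54, edgeR adjusted p = 0.588). *Cpa3*, the carboxypeptidase that trims peptides in the granule, had 634, 831 and 980.2 normalized counts across the WT libraries and 147, 858 and 272 across the DTRScxLin libraries. The DTRScxLin libraries stood in the same order, with DTRScxLin replicate 2 above 2 of the 3 WT libraries (log2 fold change -0.93, SE 0.70, edgeR adjusted p = 0.648).

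The tryptases, trypsin-like proteases stored with heparin, were lower in all 3 DTRScxLin libraries. *Tpsb2* had 615, 1066 and 824 normalized counts across the WT libraries and 184, 592 and 239 across the DTRScxLin libraries, with a narrow gap between WT replicate 1 and DTRScxLin replicate 2. Its log2 fold change was -1.30 ± 0.50 (SE) (edgeR adjusted p = 0.452). *Tpsab1* had 73.1, 118 and 88.3 normalized counts across the WT libraries and 24.7, 43.0 and 26.7 across the DTRScxLin libraries, a wider separation at a lower level. With a log2 fold change of -1.56 ± 0.34 (SE), it was the most negative of the 9 (2.94-fold lower, edgeR adjusted p = 0.274, DESeq2 adjusted p = 0.0063). In the GENCODE vM21 transcripts the tryptase pair shared 0 stretches of 50 bases with each other or with another gene, whereas 5.48% of such stretches of *Mcpt4* also occurred in *Cma2* or *Mcpt9* and 5.38% of those of *Cma1* in *Gm48934*. *Cma2* itself had at most 3.05 normalized counts in any library and *Mcpt9* had 0.

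The proteases differed less in their proportions than in their levels. Of the counts on these 5 genes, *Mcpt4* held 28.1% to 33.2% in WT and 24.2% to 28% in DTRScxLin libraries, *Cma1* 20.8% to 21.6% and 25.1% to 27.1%, and *Tpsab1* 2.35% to 2.90% and 1.44% to 3.48%. The share of *Mcpt4* was thus lower in each DTRScxLin library than in each WT library, by a narrow margin, and that of *Cma1* was higher. Summed over the 5 genes, the level was 62.7, 90.5 and 82.0 CPM (counts scaled to a common library total) in WT and 14.6, 63.8 and 27.3 in DTRScxLin replicates 1 to 3. Per exon length (CPM per kilobase of GENCODE vM21 exon), the level in WT was highest for *Mcpt4* at 21.0 ± 2.42 (SD, n = 3), followed by *Cma1* at 15.3 ± 3.01, *Cpa3* at 11.8 ± 2.51 and *Tpsb2* at 11.5 ± 3.27. On that scale each WT library was higher for *Mcpt4* than any was for *Cma1*, and the ranges of *Cma1*, *Cpa3* and *Tpsb2* overlapped. *Fcer1a* (1.52 ± 0.714), *Kit* (1.48 ± 0.215), *Ms4a2* (0.996 ± 0.274), *Tpsab1* (0.979 ± 0.252) and *Hdc* (0.653 ± 0.253) followed on the same scale (SD, n = 3 each), with overlapping ranges between neighbours.

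The receptors of mast cells follow. *Ms4a2*, which encodes the beta chain that amplifies signals of Fc epsilon RI, had 90.3, 156 and 135 normalized counts across the WT libraries and 30.9, 62.2 and 42.1 across the DTRScxLin libraries. No DTRScxLin library reached the WT range (log2 fold change -1.49, SE 0.35, edgeR adjusted p = 0.293, DESeq2 adjusted p = 0.0059). *Fcer1a*, the alpha chain that binds IgE, had 32.5, 79.1 and 94.6 normalized counts across the WT libraries and 13.4, 70.8 and 14.4 across the DTRScxLin libraries. Here WT replicate 1 was below DTRScxLin replicate 2, and the groups overlapped (log2 fold change -1.06, SE 0.74, edgeR adjusted p = 0.613). *Kit*, the receptor for stem cell factor, is also made by melanocytes and other cells. It had 651, 646 and 504 normalized counts across the WT libraries and 331, 359 and 468 across the DTRScxLin libraries. The groups were close but separate, with the smallest ratio of the highest to the lowest library of the 9, at 1.97 (log2 fold change -0.64, SE 0.18, edgeR adjusted p = 0.347, DESeq2 adjusted p = 0.047). The order of the DTRScxLin libraries differed from that of the proteases, since replicate 3 and not replicate 2 was highest.

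*Hdc*, the enzyme of histamine synthesis, which neutrophils and other myeloid cells can also express, was the 1 gene of the 9 fitted higher. It had 256, 203 and 110.2 normalized counts across the WT libraries and 1921, 394 and 169.6 across the DTRScxLin libraries. DTRScxLin replicates 1 and 2 were above the WT libraries and replicate 3 lay within the WT range. The log2 fold change was 2.12 ± 1.04 (SE) (edgeR adjusted p = 0.511), and without DTRScxLin replicate 1 it was 0.57. The library with the most *Hdc* had the lowest level of each of the other 8 genes. The neutrophil genes *S100a9*, *S100a8* and *Cxcr2* were high in the same library. *S100a9* had 562, 486 and 144 normalized counts across the WT libraries and 5433, 782 and 309 across the DTRScxLin libraries. Of the 9 genes of the neutrophil list, 3 were tested and 0 called, and their sum ranged from 7.41 to 24.5 CPM in WT and from 13.7 to 194 in DTRScxLin libraries. *Ly6g*, a surface marker of neutrophils, had 0 counts in WT and at most 4.12 normalized counts in DTRScxLin libraries. The part of these cells in the *Hdc* level was not tested.

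**Figure D2:**
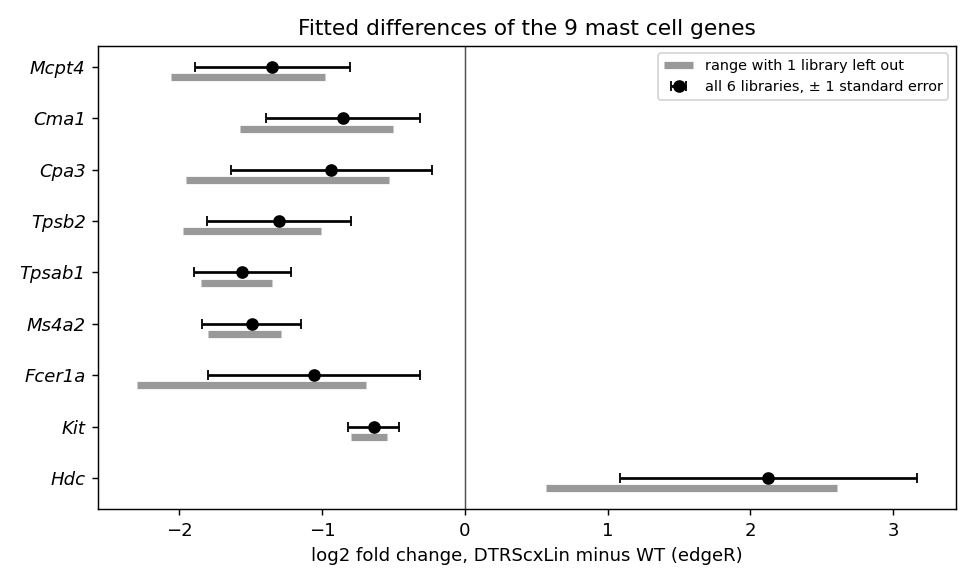
Log2 fold change of DTRScxLin minus WT for each mast cell gene (black points, bars ± 1 standard error, edgeR with all 6 libraries), with the range over the 6 fits that each leave 1 library out (grey bars). The 8 genes left of 0 stay left of 0 in every one of these fits, and *Hdc* stays right of 0, between 0.57 and 2.61.

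Among themselves, the 5 protease and 2 Fc epsilon RI genes varied together over the 6 libraries. Pearson's r of log2 CPM ranged from 0.82 to 0.99 over their 21 pairs, from 0.36 to 0.78 between *Kit* and the 7, and from -0.74 to -0.54 between *Hdc* and the other 8. These coefficients are descriptions, since the points share the same 6 libraries and the group difference itself. Fat and muscle lists also followed the profile of the 9 genes, with coefficients given with the likeness ranking below. The level of the 7 genes was 65.3, 95.7 and 87.0 CPM in WT and 15.6, 66.6 and 28.6 in DTRScxLin replicates 1 to 3. DTRScxLin replicate 2 was thus just inside the WT range and the other 2 DTRScxLin libraries were below it. When DTRScxLin replicate 2 was left out, edgeR called 6 of the 9 genes lower, all but *Kit*, *Fcer1a* and *Hdc*, in a fit that called 103 genes higher and 441 lower of the 17998 it tested. With any 1 of the remaining libraries omitted instead, edgeR called 0 of the 9.

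Transcripts of other tissues also differed between these libraries. A list of 17 skeletal muscle genes summed to 27176, 24399 and 19721 CPM in WT and to 3358, 24140 and 6372 in DTRScxLin replicates 1 to 3, so that DTRScxLin replicate 2 was in the WT range here too. Each of the 17 was fitted lower, with a median log2 fold change of -1.13 and 0 called by edgeR or DESeq2. With the muscle level as a covariate in edgeR, the median log2 fold change of the 9 genes was -0.53. *Cpa3* was then at -0.0645 and *Cma1* at -0.0807, while *Tpsab1* was at -1.17, *Ms4a2* at -1.08 and *Kit* at -0.60, and 0 of the 9 were called. Over the 8 adipocyte genes the sums were 146, 199 and 225 CPM in WT and 90.9, 157 and 114 in DTRScxLin replicates 1 to 3, and 6 of the 8 were lower in each DTRScxLin than in each WT library (median log2 fold change -2.33, 0 called by edgeR and 4 by DESeq2). Keratinocyte transcripts, a sign of skin, where mast cells are frequent, summed to 3219, 1952 and 28.7 CPM in WT and to 14.6, 25.9 and 316 in DTRScxLin replicates 1 to 3 (15 genes, median log2 fold change -3.02, 0 called). WT replicate 3 was near the low end of this list. Its 7 protease and Fc epsilon RI genes summed to 87.0 CPM, between WT replicates 1 and 2. *Kit*, at 504 normalized counts, and *Hdc*, at 110.2, were lower there than in WT replicates 1 and 2. With the keratinocyte level as a covariate the median of the 9 was -1.38, and *Kit* was at -0.39, against -0.64 without a covariate. Without WT replicates 1 and 2, an alternative chosen after seeing the data, the median was -1.28 and *Kit* was at -0.39. In that fit the lone WT library was assumed to vary like the DTRScxLin libraries. The part of muscle, fat and skin transcripts in the result was not tested beyond these values.

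**Figure D3:**
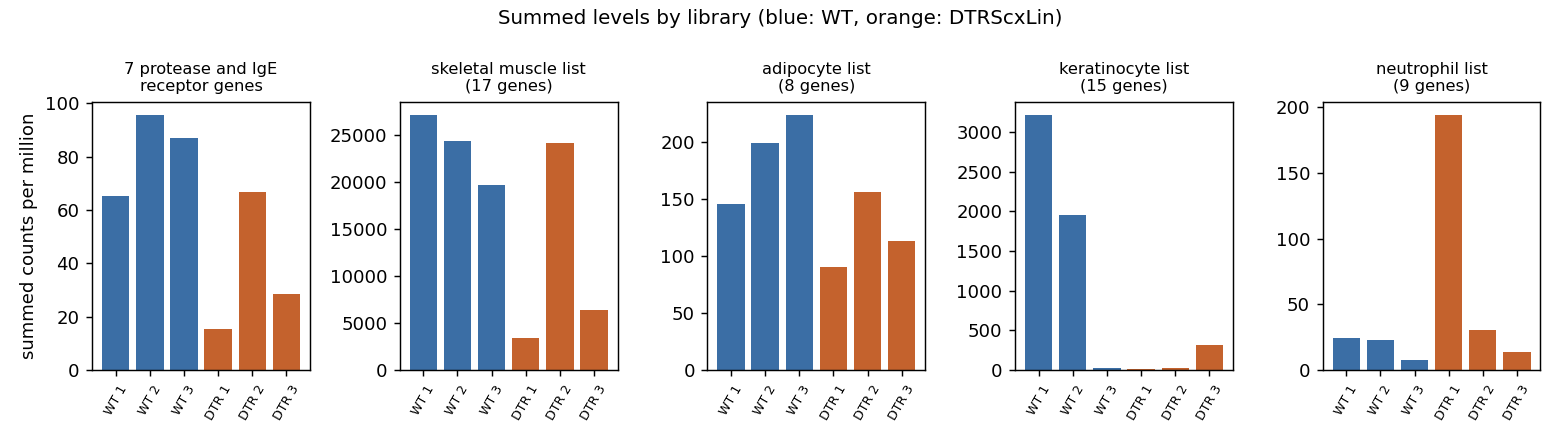
Summed CPM (vertical axes, in counts scaled to a common library total, each from 0) of the 7 granule protease and Fc epsilon RI genes and of the skeletal muscle, adipocyte, keratinocyte and neutrophil lists, by library (WT blue, DTRScxLin orange). The first 3 panels have their lowest bars in DTRScxLin replicates 1 and 3, keratinocyte transcripts are highest in WT replicates 1 and 2, and neutrophil transcripts in DTRScxLin replicate 1.

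A further list of 11 mast cell markers held no member of the 9. In it 10 genes passed the filter, 9 were fitted lower and 1 higher, 0 were called by edgeR or DESeq2, and the median log2 fold change was -0.89. The lowest was *Mrgprb1*, a receptor of the Mas-related family, with 186, 262 and 125 normalized counts across the WT libraries and 15.5, 130.1 and 45.2 across the DTRScxLin libraries (log2 fold change -1.58, SE 0.75, edgeR adjusted p = 0.489). *Mrgprb2*, the receptor through which basic peptides and drugs activate mast cells without IgE, had 51.8, 121 and 85.2 normalized counts across the WT libraries and 13.4, 78.4 and 19.5 across the DTRScxLin libraries. For both receptors DTRScxLin replicate 2 lay in the WT range, as it did for *Cma1* and *Cpa3* but not for *Mcpt4*, *Tpsb2* or *Tpsab1*. *Slc18a2*, the transporter that loads histamine into granules, was fitted at -1.19 (SE 0.55), and *Tph1*, which makes serotonin, at -1.28 (SE 0.48). *Gata2*, a transcription factor that mast cells need, had 327, 457 and 467 normalized counts across the WT libraries and 275, 279 and 252 across the DTRScxLin libraries. Its groups did not overlap (log2 fold change -0.63, SE 0.18, edgeR adjusted p = 0.347), nor did those of *Adora3*, an adenosine receptor, with a log2 fold change of -1.07 (SE 0.32). Nearer 0 were the log2 fold changes of *Mitf* at 0.12, the highest of the list, *Rab27b* at -0.016 and *Il1rl1* at -0.14.

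**Figure D4:**
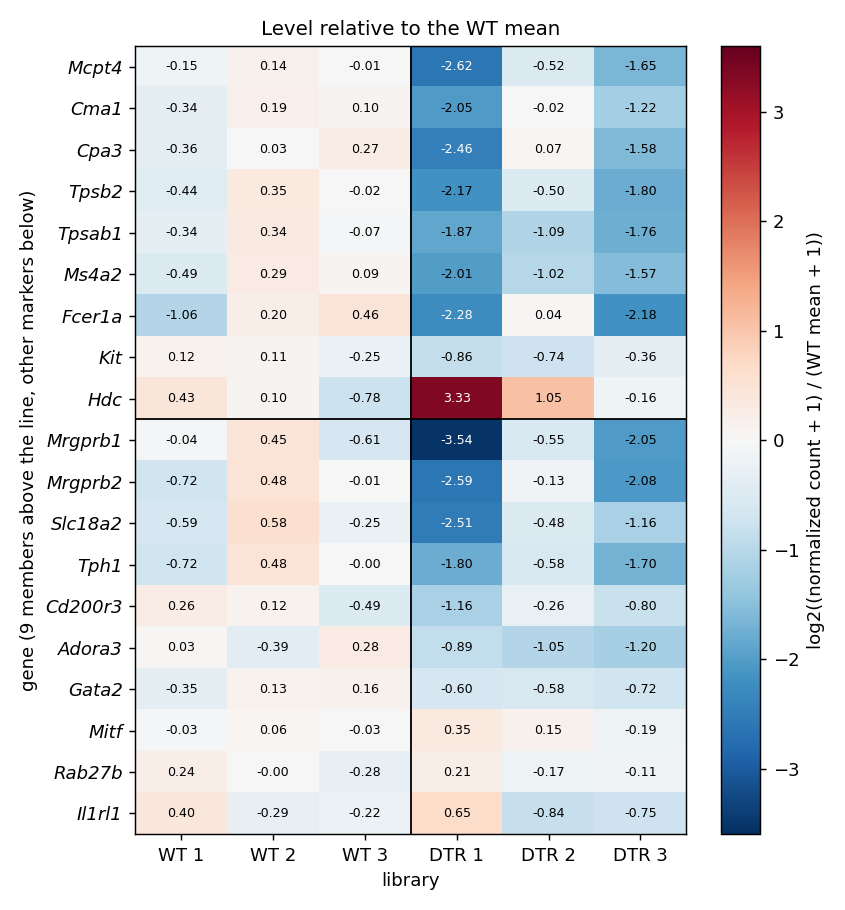
Level of the 9 mast cell genes (above the line) and the 10 other tested mast cell markers (below) in each library, as log2 of the normalized count plus 1 over the WT mean plus 1; blue is lower and red higher than the WT mean. In DTRScxLin replicates 1 and 3 each gene from *Mcpt4* down to *Gata2* is below the WT mean, except *Hdc* in replicate 1, and the lowest value is -3.54, for *Mrgprb1* in DTRScxLin replicate 1.

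Because the protease and Fc epsilon RI genes varied together over the libraries, the bases in front of their transcription start sites are shown. A RefSeq promoter table of the build GRCm38.p6 matched 7 of the 9 genes by symbol, all but *Tpsb2* and *Tpsab1*. The 250 bases before the start are printed 5′ to 3′ for a carboxypeptidase, a chymase and a receptor gene of the group, and for *Hdc*, which differed from them. Capitals mark each match to the GATA motifs AGATAA or else TGATAA, and AGATAG or else TGATAG, on either strand.
Cpa3, chr3:20242182-20242431, minus strand: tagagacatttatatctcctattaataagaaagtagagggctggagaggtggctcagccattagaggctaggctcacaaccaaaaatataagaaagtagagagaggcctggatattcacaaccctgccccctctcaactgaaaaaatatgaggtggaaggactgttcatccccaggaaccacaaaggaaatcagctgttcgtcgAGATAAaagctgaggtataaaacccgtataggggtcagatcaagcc
Mcpt4, chr14:56062311-56062560, minus strand: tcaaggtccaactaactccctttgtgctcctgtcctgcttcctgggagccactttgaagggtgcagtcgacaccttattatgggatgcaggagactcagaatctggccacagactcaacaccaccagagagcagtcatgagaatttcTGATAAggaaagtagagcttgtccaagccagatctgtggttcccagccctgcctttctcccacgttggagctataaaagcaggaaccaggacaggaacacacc
Ms4a2, chr19:11623720-11623969, minus strand: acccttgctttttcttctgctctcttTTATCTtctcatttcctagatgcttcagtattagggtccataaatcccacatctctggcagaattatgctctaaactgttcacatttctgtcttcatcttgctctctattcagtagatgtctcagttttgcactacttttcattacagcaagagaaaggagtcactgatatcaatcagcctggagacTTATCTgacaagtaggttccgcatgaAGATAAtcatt
Hdc, chr2:126618679-126618928, minus strand: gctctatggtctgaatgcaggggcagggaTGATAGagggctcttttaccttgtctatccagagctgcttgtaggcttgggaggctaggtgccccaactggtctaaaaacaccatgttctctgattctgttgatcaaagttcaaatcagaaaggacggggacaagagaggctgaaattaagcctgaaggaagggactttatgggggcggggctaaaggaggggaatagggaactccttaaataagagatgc
Of the 7 windows, 6 held at least 1 such match, all but that of *Kit*, against 26.5% of the 32851 windows of this length in the table. *Ms4a2* had 3 matches, which began 224, 37 and 11 bases before the start, and *Cpa3* had 1 at 46 bases. *Hdc* held a match too, 221 bases before its start, although it was the gene fitted higher. An E-box that MITF can bind, CATGTG or CACGTG on either strand, was in 1 of the 7 windows, that of *Fcer1a*, against 17.6% of all windows. A match is a run of letters and not a site shown to be used.

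Lists for the rest of the mast cell pathway had medians nearer 0 than the 9 genes. In whole tissue such lists cannot give the level within mast cells. *Plcg1*, the most abundant gene of the signalling list, averaged 5301 normalized counts in WT, against 68.7 for *Fcer1a*. The 18 genes of Fc epsilon RI signalling all passed the filter, 8 were fitted higher and 10 lower, 0 were called, and the median log2 fold change was -0.0046. *Fcer1g*, the gamma chain that the receptor shares with macrophage Fc receptors, had 5511, 4214 and 4965 normalized counts across the WT libraries and 5337, 4698 and 4603 across the DTRScxLin libraries, so the groups overlapped (log2 fold change -0.0051, SE 0.12). The lowest gene of the list was *Grap2*, an adaptor, at -0.62 (SE 0.25), and the highest *Vav1*, a guanine nucleotide exchange factor, at 0.21 (SE 0.17). The 9 genes of the granule proteoglycan and of heparin synthesis had a median of 0.13, with 7 fitted higher, 2 lower and 0 called. *Srgn*, the core protein of that proteoglycan, also made by macrophages and neutrophils, was the highest of them at 0.35 (SE 0.38), with 8398 normalized counts in DTRScxLin replicate 1 and 3342 to 4785 in the other libraries. The lowest was *Ndst2*, which sulfates heparin, at -0.087 (SE 0.14).

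Growth and recruitment signals were measured in 10 of 14 genes, with 7 fitted higher, 3 lower, 0 called and a median of 0.049. *Kitl*, which encodes stem cell factor, had 2652, 3234 and 3079 normalized counts across the WT libraries and 2438, 3573 and 3412 across the DTRScxLin libraries. The groups overlapped (log2 fold change 0.072, SE 0.15, edgeR adjusted p = 0.891). *Il9r*, a receptor for a mast cell growth factor, was the highest of the list at 0.54 (SE 0.53). *Il3* and *Il9*, mast cell growth factors made by T cells, had 0 counts in all 6 libraries.

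The mediators and their receptors gave mixed values. Of 7 eicosanoid genes, 3 were fitted higher, 4 lower and 0 called by edgeR (median -0.074). *Ltc4s*, which makes leukotriene C4, was the lowest at -0.63 (SE 0.26), without overlap between the groups. *Ptgs2*, the inducible cyclooxygenase of many cell types, was the highest, with 312, 156 and 114 normalized counts across the WT libraries and 1020.3, 516 and 474 across the DTRScxLin libraries (log2 fold change 1.79, SE 0.49, edgeR adjusted p = 0.354, DESeq2 adjusted p = 0.00041). Of 7 genes for histamine receptors, histamine breakdown and the tryptase-activated receptor, 4 were tested and 0 called (median -0.017). *Hrh1*, the H1 histamine receptor, had 133, 141 and 144 normalized counts across the WT libraries and 85.5, 89.9 and 71.9 across the DTRScxLin libraries, without overlap (log2 fold change -0.76, SE 0.21, edgeR adjusted p = 0.347). *F2rl1*, which encodes the receptor PAR2 that tryptase can cleave, was the highest at 0.63 (SE 0.24), also without overlap.

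**Figure D5:**
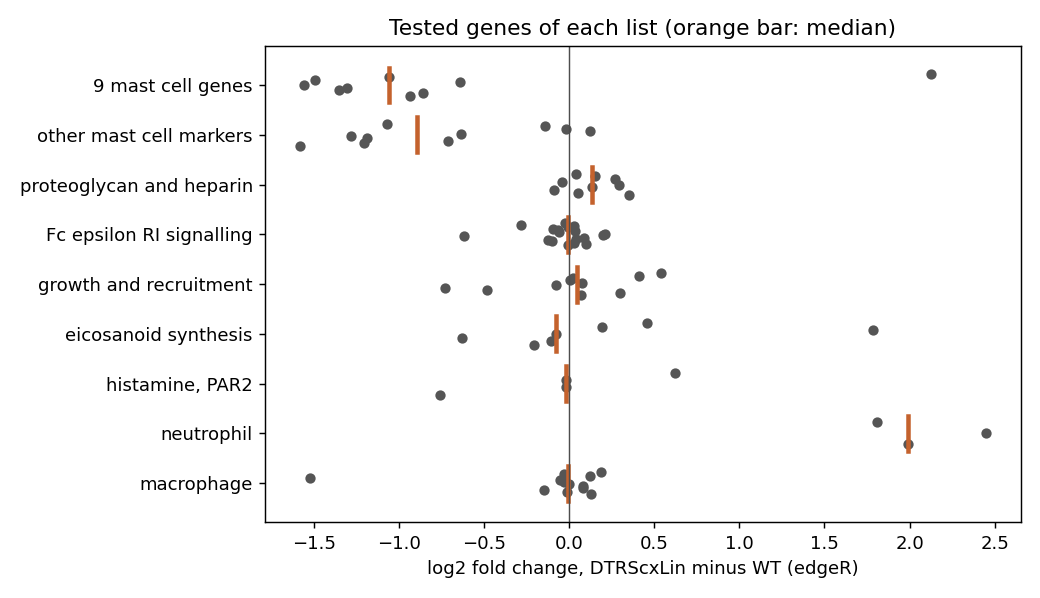
Log2 fold change of DTRScxLin minus WT for each tested gene (points) of 9 lists, with the list's median as an orange bar; edgeR, 6 libraries. The medians of the 9 mast cell genes and of the other mast cell markers are -1.06 and -0.89, those of the 5 pathway lists lie between -0.074 and 0.13, and the neutrophil median is 1.99.

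Markers of other cells that share some of these genes were measured as well. *Mcpt8*, a basophil protease, had at most 3.05 normalized counts in any library. *Prss34*, another, had 15.2, 9.42 and 32.2 across the WT libraries and 0, 6.70 and 4.11 across the DTRScxLin libraries, without overlap. Of the other granule proteases, 1 of 9, *Gzmb*, passed the filter, with a log2 fold change of 0.78 (SE 0.71). *Tpsg1*, which did not pass, had 21.3, 12.2 and 5.20 normalized counts across the WT libraries and 2.06, 6.70 and 2.06 across the DTRScxLin libraries. *Ctsg*, which did not pass either, had 8.12, 10.4 and 4.16 in WT and 0, 7.65 and 2.06 in DTRScxLin libraries. Both overlapped. The mucosal mast cell proteases *Mcpt1* and *Mcpt2* had at most 1.91 normalized counts, and *Mcpt1* had 0 in WT. The eosinophil genes *Epx*, *Ear1* and *Ear6* had 0 counts in all libraries. *Il5ra* and *Prg2* did not pass the filter and did not overlap. *Il5ra* had 3.05, 7.53 and 7.28 normalized counts across the WT libraries and 0 in DTRScxLin, and *Prg2* had 2.03, 3.77 and 6.24 against 0, 1.91 and 1.03. Of the 3 tested eosinophil genes, 2 were fitted higher and 1 lower, from *Ear2* at -1.04 (SE 0.61) to *Siglecf* at 1.00 (SE 0.61). Of 6 melanocyte genes, which matter here because melanocytes also make *Kit*, 4 were tested, with 1 fitted higher, 3 lower and 0 called. *Mlana*, a melanosome protein, had 18.3, 17.9 and 21.8 normalized counts across the WT libraries and 1.03, 9.57 and 13.4 across the DTRScxLin libraries, without overlap (log2 fold change -1.26, SE 0.66). *Tyrp1*, a pigment enzyme, was the lowest at -1.61 (SE 0.84) and *Pmel* the highest at 0.41 (SE 0.44), both with overlap. *Dct* and *Tyr*, also pigment enzymes, did not pass the filter, and *Dct* had 26.4, 11.3 and 2.08 normalized counts across the WT libraries and at most 2.06 in the DTRScxLin libraries, while *Tyr* had at most 3.09 in any. The part of melanocytes in the *Kit* level was not tested. For 12 macrophage genes the median was -0.0078, with 5 fitted higher, 7 lower and 0 called by edgeR. The lowest of them, *Cd163*, a scavenger receptor of resident macrophages, had 2513, 2714 and 2122 normalized counts across the WT libraries and 489.5, 1123 and 944 across the DTRScxLin libraries, without overlap (log2 fold change -1.52, SE 0.31, edgeR adjusted p = 0.293), and it was the 1 macrophage gene that DESeq2 called. For 12 lymphoid genes the median was 0.091, with 7 higher, 5 lower and 0 called. The medians of the basophil (3 tested), eosinophil (3), melanocyte (4), endothelial (9) and Schwann (7) lists were -0.23, 0.16, -0.76, -0.069 and -0.26, and that of 10 tendon genes was 0.31, with 0 called by edgeR in each. The gene with the most counts in these lists was *Itga2* for basophils (log2 fold change -0.23), *Ccr3* for eosinophils (0.16), *Sox10* for melanocytes (-0.26), *Lyz2* for macrophages (0.084), *Cd4* for lymphoid cells (0.14), *Pecam1* for endothelium (-0.15), *Pmp22* for Schwann cells (-0.35) and *Col1a2* for tendon (0.32), each with overlap between the groups. It was *Krt10* (-4.87) for keratinocytes, *Fabp4* (-0.27) for fat and *Myh1* (-1.26) for muscle, also with overlap.

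By the likeness of log2 CPM to the mean standardized profile of the 9 genes over 6 libraries, the closest of 17298 other genes were *Fgf6*, *Kcnc1*, *Ephx2*, *Pex10* and *Ctnna3*, with Pearson's r from 0.992 to 0.996. *Fgf6*, for example, had 66.0, 136 and 94.6 normalized counts across the WT libraries and 9.28, 63.1 and 15.4 across the DTRScxLin libraries. At the other end, *Gpr153*, *Pimreg*, *Gm42788* and *Bak1* had r from -0.998 to -0.990. With 6 libraries, 731 genes or 4.23% had an r over 0.9, so the ranking is a description of these libraries. Log2 of the summed CPM had an r with that profile of 0.94 for the adipocyte list and 0.93 for the skeletal muscle list. Over the remaining lists r ranged from -0.84 (tendon) to 0.69 (Schwann). That of the other mast cell markers, whose most abundant gene was *Il1rl1*, was -0.04. None of the mast cell markers listed above was among the closest 5.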

How the data were processed

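RNA-seq libraries of 6 FDL tendons (3 per genotype) were analysed. Per the paper's methods and labels, the authors cleaned the reads with FastP, ran featureCounts for counts of reads per gene, and deposited these raw counts. They also deposited a signal table of the counts divided by 1 size factor per library (DESeq2 1.22.1). All values in it came out as whole reads when multiplied back (100% within 0.01). The aligner, build, annotation and strand setting are not given in the sources used here, so genes are given by symbol. Genes with overlap or shared sequence are uncertain, and *Cpa3* overlaps *Mir7007* in GENCODE vM21.

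Counts were fitted in R 4.3.3 with edgeR 4.0.16 (filterByExpr, TMM, robust quasi-likelihood F test, genotype as single term) on all 17496 genes that passed, with Benjamini-Hochberg adjustment over all of them and a threshold of 0.05. DESeq2 1.42.0 and limma 3.58.1 were alternatives. Standard errors are the absolute log2 fold change over the square root of F. The 9 genes and all lists were chosen with earlier results of these data known. In each mast cell list, the genes with the highest and lowest fitted difference were named, beside the most abundant gene of each cell type list. Genes named in the plan and the 5 most and 5 least alike in profile were named too. Others were picked after their values were seen (*Slc18a2*, *Tph1*, *Adora3*, *Rab27b*, *Il1rl1*, *S100a8*, *Cxcr2*, *Cd163*, *Scx*, *Tnmd*, *Prss34*, *Tpsg1*, *Ctsg*, *Il5ra*, *Prg2*, *Ear2*, *Siglecf*, the melanocyte genes and genes listed at or near 0). Some genes that this rule names are not reported here. On simulated data for 17496 genes, edgeR recovered 51 of 110 genes changed by 1 and 72 of 86 changed by 2 on the log2 scale, with 7 false calls among 16977 unchanged genes. DESeq2 recovered 70 of 108 and 75 of 82, with 59 false calls among 16598 unchanged genes. Replicates differed by more than counting noise (chi-square of 36.6 to 189.8 per degree of freedom), so n = 3 limits the precision. Each library was 1 tendon. The p-values weigh the group difference against the spread between tendons, which was estimated with information shared over genes.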

Additional observations from a re-analysis of the deposited data

How the results depend on the processing

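Over 19 alternative fits, the 8 lower genes stayed lower and *Hdc* stayed higher in every one. DESeq2 called 466 genes in all, 3 of the 9 mast cell genes and 11 of the listed genes. Without a filter on low counts edgeR called 83 genes, with 2384 at an unadjusted p under 0.05 against 1918 with the filter, and 0 of the 9. With the replicate number as a block it called 1 gene, *Plin4*, which is in the adipocyte list (1 of the listed genes), and 0 of the 9. Same-numbered libraries did not deviate together from their group means (r from -0.73 to -0.21), and no sample correlated best with its own number. Deviations from a mean of 3 libraries sum to 0 in each group, so these r cannot show whether libraries were matched by sex or litter. With 1 library left out in turn, the calls ranged from 0 to 544 genes, 0 to 6 of the 9, and 0 to 22 listed genes, and the median of the 9 from -1.85 to -0.69; the highest counts and the lowest median came without DTRScxLin replicate 2. With the skeletal muscle covariate the median was -0.53. The causes were not tested. The other scalings, limma-voom, limma on log2 of the deposited values, at least 10 counts in every library, the keratinocyte covariate and, chosen after seeing the data, recovered whole reads and the fit without WT replicates 1 and 2 called 0 of the 9 (edgeR on recovered reads called 0 genes in all). Without *Kit* and *Hdc*, also chosen after seeing the data, the median was -1.30. The summed level of the 9 had a log2 ratio of -0.68, -0.64 from the deposited normalized counts and -0.52 without *Mcpt4*. *Fcer1a*, *Tpsab1* and *Ms4a2* rest on 13 to 166 counts per library.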
